A study of Danio rerio with 5 samples.

Results

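The 13 protein-coding transcripts of the zebrafish mitochondrial genome were followed across 5 RNA-seq libraries of whole embryos. They are the genes whose symbol in the deposited tables begins with mt-, and they make up 13 of the 32520 genes listed. The rule was written to hold mitochondrial rRNAs and tRNAs as well, but every gene it found was an mRNA. All 13 passed the filter on low counts, as did 16445 of all genes.

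Embryos were collected 4 hours after fertilisation, and the organism was Danio rerio. The pool of 10 (1 library) was an RfxCas13d knockdown with a guide against szrd1 and 9 further guides. The pool of 25 (1 library) was an RfxCas13d knockdown with the szrd1 guide and 24 further guides. The controls (3 libraries, replicates 1 to 3) were labelled as RfxCas13d controls. RfxCas13d, an RNA-guided nuclease that cuts transcripts, is thus named for all 5 libraries. The sources used here do not give the targets of the other guides, what the controls received apart from RfxCas13d, or the number of embryos per library. The Nextera XT reaction was run at 1/8 volume for both pools and control 3, and at 1/4 volume for controls 1 and 2. Among the controls, control 3 alone therefore matches the pools in reaction volume. Because no label ties the controls to separate clutches, p-values describe the spread between these libraries, which may be technical.

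Mitochondrial DNA is transcribed from both strands as long precursors, which are cut into single RNAs largely at the tRNAs that lie between the coding genes. The mRNAs encode core subunits of respiratory complexes I, III, IV and V. The early embryo inherits its mitochondria from the egg, and these supply energy during cleavage. Since the mRNAs share a few precursors, differences between their levels are usually placed after transcription, in processing and stability.

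Gene counts totalled 6872714 and 6528043 in the pools of 10 and 25, against 13104114, 14179837 and 5283761 in controls 1 to 3. Reads not assigned to a gene made up 33.9% and 26.7% of the pools, against 27.1%, 32.0% and 53.8% of the controls. Unmapped reads, a part of these, made up 21.0% and 13.8% of the pools, against 13.1%, 16.0% and 44.0% of the controls. The targeted szrd1 stood at 41.3 and 45.6 CPM in the pools of 10 and 25, against 221, 278 and 311 CPM in the controls (CPM, counts scaled to a common library size by TMM). The maternal pluripotency factors nanog, pou5f3 and sox19b summed to 3171 and 3055 CPM in the pools and to between 2499 and 3432 CPM in the controls. Both pools lay above every control for the germ plasm set (1329 and 1158 CPM, against 747 to 964 CPM), a sum made up mostly of buc. Of its other genes, nanos3 and dnd1 lay below controls 1 and 2 and above control 3 in both pools. ddx4 lay above controls 1 and 2 in both. The pools lay below every control for the yolk syncytial layer set (153 and 158 CPM, against 197 to 493 CPM), a sum made up mostly of mxtx2. The zygotic blastula set (243 and 256 CPM, against 257 to 573 CPM) was also below, only narrowly so in the pool of 25. By gene, both pools were above every control for buc (germ plasm, 1039 and 918 CPM, against 381 to 646 CPM). They were also above every control for sox19b (maternal pluripotency, 534 and 471 CPM, against 233 to 301 CPM). The same held at low levels for her1 (zygotic, 3.11 and 1.51 CPM, against 0.252 to 0.865 CPM). Both pools were below every control for mxtx2 (yolk syncytial layer, 151 and 156 CPM, against 189 to 455 CPM) and vox (zygotic). The other genes of these sets overlapped the controls. Among tested genes, 14.6% had both pools above every control and 14.9% below. The enveloping layer set summed to 1131 and 1052 CPM in the pools, against 522 to 2150 CPM. The part of cell make-up in the results on mitochondrial mRNAs was not tested. Of 5 genes of later tissues, myod1, neurod1 and cryaa had no count in any library.

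The mRNAs of complex IV, cytochrome c oxidase, were among the most abundant. mt-co1, which encodes the catalytic subunit, had 2299 CPM in the pool of 10 and 2635 CPM in the pool of 25, against 2028, 2097 and 1278 CPM in controls 1 to 3. Both pools lay above every control for this gene, and control 3 was the lowest library. mt-co2, the subunit that receives electrons from cytochrome c, had 1191 and 1225 CPM in the pools, against 2973, 4228 and 586 CPM in the controls. mt-co3, the third core subunit, had 1244 and 1228 CPM in the pools, against 3238, 3548 and 759 CPM. For mt-co2 and mt-co3 both pools lay between control 3, the lowest library, and controls 1 and 2.

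Complex III, which passes electrons to cytochrome c, has mt-cyb as its sole mitochondrially encoded subunit. mt-cyb had 795 and 861 CPM in the pools of 10 and 25, against 2353, 2500 and 386 CPM in controls 1 to 3. It shared the pattern of mt-co2 and mt-co3, with control 3 lowest and both pools in the gap below controls 1 and 2.

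Complex V, the ATP synthase, is represented by mt-atp6 and mt-atp8, subunits of its membrane part. mt-atp6 had 406 and 417 CPM in the pools, against 710, 804 and 272 CPM in the controls. mt-atp8 had 62.9 and 41.6 CPM in the pools, against 64.6, 87.2 and 34.6 CPM. Both genes again placed the pools above control 3 and below the other controls, by a small margin for mt-atp8 in the pool of 10.

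The 7 subunits of complex I, NADH dehydrogenase, fell into differing patterns. mt-nd1 had 226 and 177 CPM in the pools of 10 and 25, against 223, 234 and 135 CPM in the controls. mt-nd2 had 211 and 196 CPM in the pools, against 390, 430 and 153 CPM. mt-nd4 had 426 and 373 CPM in the pools, against 569, 608 and 304 CPM. In each of these, control 3 was the lowest library. mt-nd4l, a short subunit read from the same RNA as mt-nd4, had 29.3 and 27.2 CPM in the pools, against 74.3, 74.1 and 24.8 CPM. mt-nd3 had 82.7 CPM in the pool of 10 and 43.0 CPM in the pool of 25, against 118, 154 and 62.1 CPM. mt-nd3 was the only member below every control in the pool of 25, where 25.1% of tested genes were, and 0 members were below every control in the pool of 10 (background 23.7%). mt-nd5 had 442 and 306 CPM in the pools, against 261, 422 and 334 CPM, and it was the only member for which control 3 was not the lowest control. mt-nd6, the mRNA of the opposite strand, had 68.1 and 56.3 CPM in the pools, against 75.5, 86.6 and 51.8 CPM.

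Taking all 13 mRNAs, control 3 lay below controls 1 and 2 for 12, where 42.5% of all tested genes did the same, and above both for 0 members (background 39.2%). Both pools lay above every control for 1 member, mt-co1 (background 14.6% of tested genes), and below every control for 0 (background 14.9%). In the pool of 10, mt-co1 and mt-nd5 were above every control (background 23.6%), and in the pool of 25 mt-co1 was (background 24.3%). The pools sat between control 3 and the lower of controls 1 and 2 for 9 of 13 members, where 10.6% of tested genes did so. CPM are relative to the other transcripts of a library. In whole embryos they cannot tell apart cell make-up, mitochondria per cell, RNA per mitochondrion and technical differences between libraries.

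**Figure D1:**
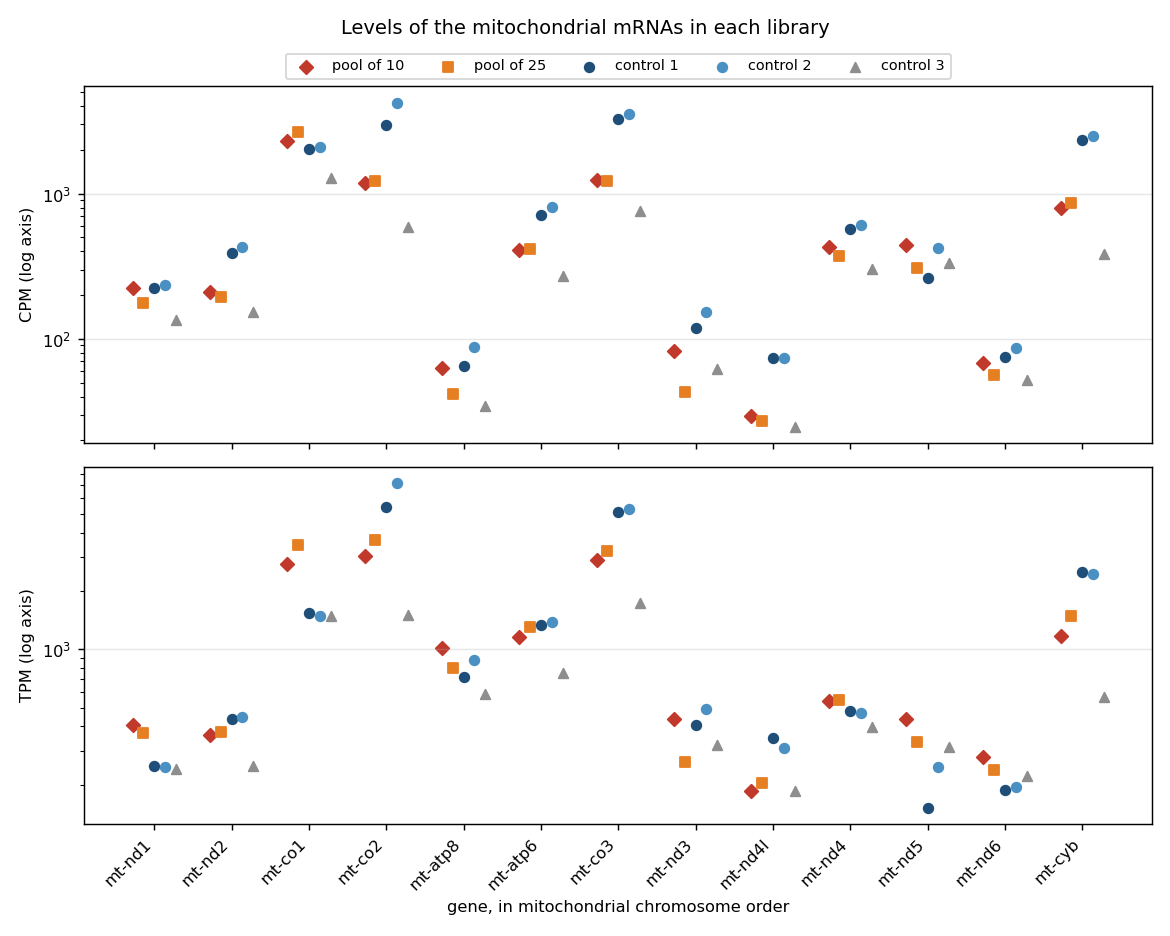
Levels of the 13 mitochondrial mRNAs in each library, in CPM (upper panel) and in TPM (lower panel), on log axes and in the order of the genes on the mitochondrial chromosome. Each point is 1 library; mt-co1 is the member with both pools above every control in CPM, while mt-co2, mt-co3 and mt-cyb spread most among the controls.

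Levels of different genes were compared in TPM, from the second deposited table, a scale that corrects for transcript length. Averaged over the controls, mt-co2 led with 4701 ± 2910 TPM and mt-co3 followed with 4048 ± 2001 TPM (SD, n = 3). mt-cyb had 1837 ± 1100 TPM and mt-co1 a mean of 1502 TPM. mt-co3 exceeded mt-cyb in each control, whereas mt-co2 and mt-co3 changed places in control 3, as did mt-cyb and mt-co1. mt-atp6 had 1155 ± 350 TPM and mt-atp8 729 ± 148 TPM, in this order in each control. In control 3 mt-cyb (566 TPM) was also below mt-atp6 (752 TPM) and mt-atp8 (588 TPM). The complex I subunits were lower, from mt-nd4 at 448 ± 45.9 TPM to mt-nd6 at 201 ± 17.5 TPM, and neighbours in their order differed by less than the larger of their SDs. In the pool of 10 the 3 oxidase mRNAs were close together, with 3036 TPM for mt-co2, 2898 TPM for mt-co3 and 2746 TPM for mt-co1. In the pool of 25 they had 3666, 3226 and 3436 TPM in the same order. Among all listed genes ranked by TPM, mt-co1 stood at places 12 and 6 in the pools of 10 and 25, against 59, 52 and 35 in the controls, while mt-cyb stood at 61 and 38, against 22, 22 and 188.

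On the TPM scale some members that scattered in CPM had tight controls. mt-co1 had 2746 and 3436 TPM in the pools, against 1537, 1480 and 1490 TPM in the controls. mt-nd1 had 407 and 369 TPM in the pools, against 249, 246 and 241 TPM. The controls of both genes thus lay within a narrow band that the pools exceeded. Both pools were above every control for 5 of 13 members in TPM, namely mt-nd1, mt-co1, mt-nd4, mt-nd5 and mt-nd6, where 22.7% of tested genes did the same, and below every control for 0 (background 7.48%). mt-atp8 was above every control in the pool of 10 as well (6 of 13 members there, background 32.4%, and 5 of 13 in the pool of 25, background 37.8%). Below every control were mt-nd4l in the pool of 10 (background 15.2%) and mt-nd3 in the pool of 25 (background 13.0%). In limma on log2(TPM + 1), mt-co1 had a log2 fold change of 1.03 for both pools over the controls (SE 0.323, unadjusted p = 0.0124, adjusted p = 0.480), and the median over all tested genes on that scale was 0.36. mt-nd1 had 0.66 (SE 0.292, adjusted p = 0.480). Neither passed, although both pools were higher than all 3 controls.

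As a share of all gene counts, the 13 mRNAs made up 0.806% in the smaller pool (exact 95% interval 0.799% to 0.813%) and 0.849% in the pool of 25 (0.842% to 0.856%). In controls 1 to 3 they made up 1.17% (1.167% to 1.179%), 1.28% (1.276% to 1.288%) and 0.479% (0.473% to 0.485%), with a mean of 0.978% ± 0.436 (SD, n = 3). The intervals cover counting error only. Both pools lay inside the range of the controls, at 1.68 and 1.77 times the share of control 3.

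The make-up of these counts split the libraries another way. mt-co1 took 30.7% and 34.7% of the mitochondrial mRNA counts in the pools of 10 and 25, against 15.5%, 13.7% and 29.2% in controls 1 to 3. mt-co2 took 15.9% and 16.1% in the pools, against 22.7%, 27.7% and 13.4%. mt-co3 took 16.6% and 16.2%, against 24.8%, 23.2% and 17.3%. mt-cyb took 10.6% and 11.4%, against 17.99%, 16.4% and 8.82%. For these genes control 3 stood next to the pools and apart from controls 1 and 2. mt-nd5 took 5.91% and 4.04% in the pools, against 1.996%, 2.76% and 7.62%, so control 3 was highest.

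Counted over all members, the share of mitochondrial mRNA counts assigned differently was 5.03% between the pool of 25 and the pool of 10 and 5.90% between controls 1 and 2. It was 5.95% and 10.9% between the pools of 10 and 25 and control 3. It ranged from 22.7% to 24.4% between either pool and controls 1 or 2, and was 26.0% and 27.8% between control 3 and the other controls. The 3 libraries that were close in make-up are those made at 1/8 reaction volume, and they also had fewer counts. The part of volume and depth in this split was not tested. The sum over complex IV varied less than its members. Complex IV held 63.3% and 67.1% of the counts in the pools, against 63.0%, 64.6% and 59.9%, since a larger mt-co1 went with smaller mt-co2 and mt-co3. Complex I held 19.8% and 15.5% in the pools, against 13.1%, 13.1% and 24.3%.

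**Figure D2:**
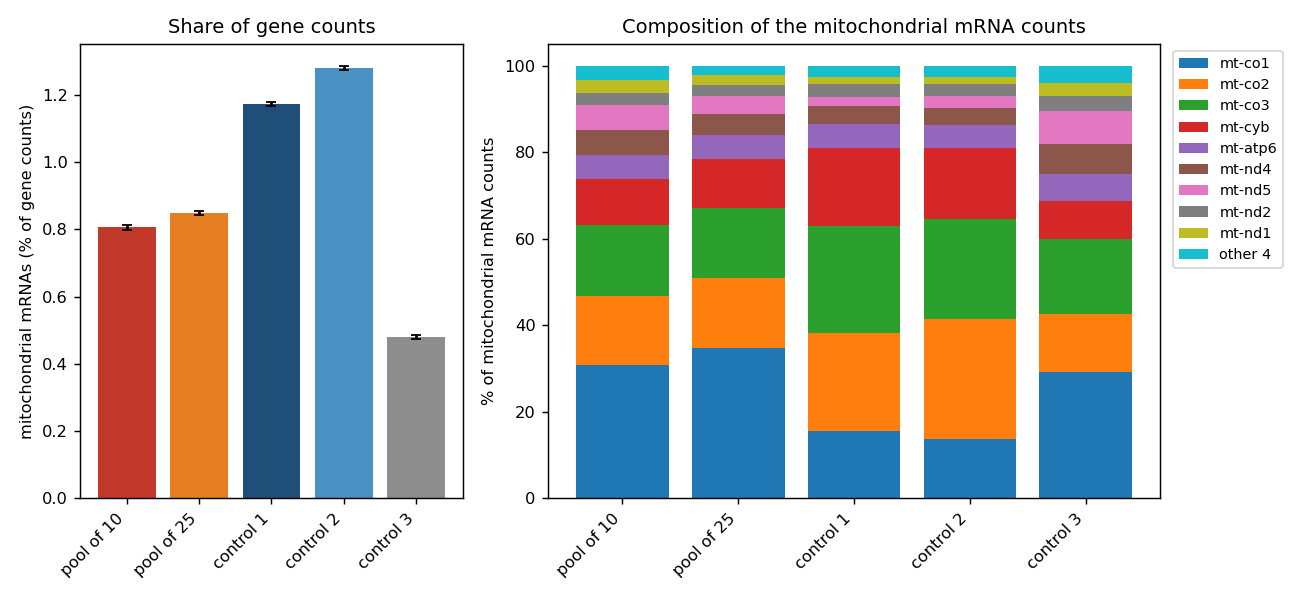
Left, the 13 mRNAs as a percentage of gene counts per library, with exact 95% binomial intervals; both pools lie between control 3 and the other controls. Right, the percentage of mitochondrial mRNA counts taken by each gene, stacked; mt-co1 takes 29.2% or more in both pools and control 3 and 15.5% or less in controls 1 and 2.

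Ratios between members do not depend on how libraries were scaled. mt-co1 and mt-co2 lie next to each other among the coding genes, with only tRNA genes between them in the RefSeq annotation. The count of mt-co1 over that of mt-co2 was 1.93 and 2.15 in the pools of 10 and 25, against 0.682, 0.496 and 2.18 in controls 1 to 3. mt-co1 over mt-cyb was 2.89 and 3.06 in the pools, against 0.862, 0.839 and 3.31. In both ratios control 3 was the highest library and the pools were close to it. mt-co2 over mt-co3 was 0.958 and 0.997, against 0.918, 1.19 and 0.772, so both pools lay inside the range of the controls.

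The annotation has overlapping reading frames for mt-atp8 with mt-atp6 and for mt-nd4l with mt-nd4, and each pair is known to share a single mRNA. mt-atp8 over mt-atp6 was 0.155 and 0.0998 in the pools, against 0.0910, 0.108 and 0.127 in the controls. mt-nd4l over mt-nd4 was 0.0689 and 0.0731 in the pools, against 0.130, 0.122 and 0.0813. Both pools lay below every control in the second ratio. The sources used here do not say how the authors' counting treated reads in such overlaps, so the counts of these pairs are uncertain. The same holds for mt-co3, whose frame mt-atp6 overlaps, and for mt-nd5 and mt-nd6, which overlap on opposite strands.

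**Figure D3:**
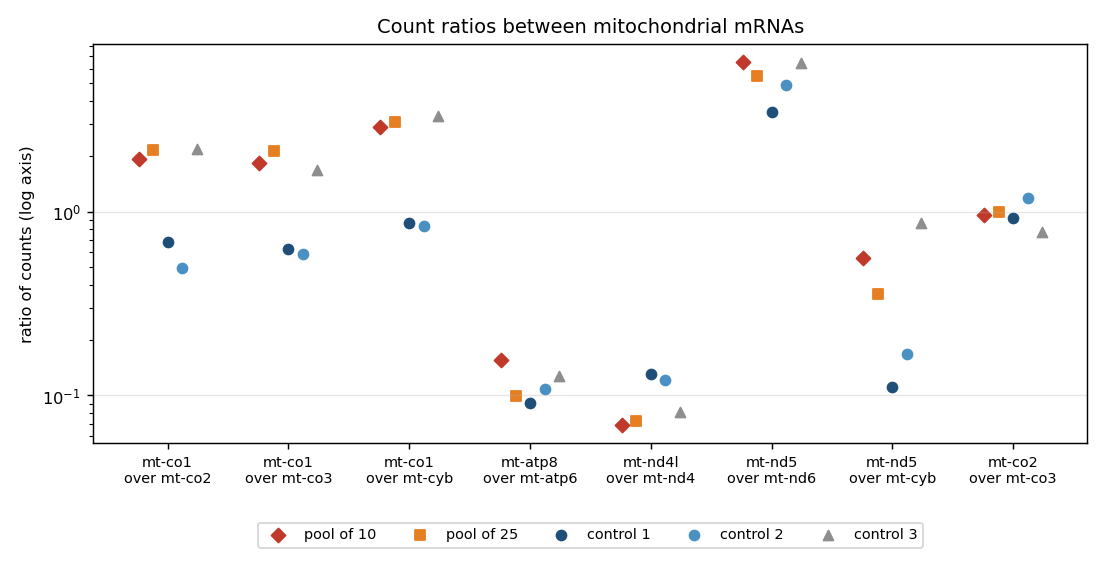
Ratios of counts between pairs of mitochondrial mRNAs in each library, on a log axis. mt-co1 over mt-co2 and mt-co1 over mt-cyb group both pools with control 3, while mt-co2 over mt-co3 lies between 0.772 and 1.19 in all libraries.

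With both pools set against the 3 controls, no mitochondrial mRNA passed edgeR's quasi-likelihood test after Benjamini-Hochberg adjustment over all tested genes. The background in this comparison was 0.0% of tested genes. At an unadjusted p under 0.05, 0 of 13 members passed, where 10.6% of tested genes did. DESeq2, limma voom and limma on TPM also called 0 of 13 members, while DESeq2 called 67 lower and 39 higher of all tested genes (0.645%). The log2 fold change was below 0 for 10 members and above 0 for 3, where 53.4% of tested genes were below 0. The median was -0.53 over the members and -0.08 over all tested genes. With limma on log2(TPM + 1), 8 members were above 0 and 5 below. Their median was then 0.14, against 0.36 over all tested genes.

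By edgeR, the lowest estimates were those of mt-co2, at -1.10 (SE 0.640, 95% interval -2.53 to 0.32), and mt-cyb, at -1.08 (SE 0.640, -2.50 to 0.35). mt-nd4l had -1.03 (SE 0.521, -2.19 to 0.13) with the smallest unadjusted p of the members, 0.0753 (adjusted p = 0.476). mt-co3 had -1.02 (SE 0.557, -2.26 to 0.21). Each of these intervals includes 0. mt-nd3 had -0.83 (SE 0.489), mt-nd2 -0.67 (SE 0.466) and mt-atp6 -0.53 (SE 0.463). mt-nd4 had -0.31 (SE 0.393), mt-atp8 -0.25 (SE 0.467) and mt-nd6 -0.20 (SE 0.394). On the other side of 0 were mt-nd1 at 0.03 (SE 0.386), mt-nd5 at 0.14 (SE 0.371) and mt-co1 at 0.45 (SE 0.329, interval -0.28 to 1.19). Adjusted p of the members ran from 0.476 to 0.978.

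The calls depended on control 3. Without control 3, edgeR called 7 members lower in the pools, namely mt-nd2, mt-co2, mt-atp6, mt-co3, mt-nd3, mt-nd4l and mt-cyb (background 12.8% of tested genes called lower). mt-cyb then had a log2 fold change of -1.56 (SE 0.187, adjusted p = 0.00176), mt-co2 -1.59 (SE 0.217, adjusted p = 0.00206) and mt-co3 -1.47 (SE 0.180, adjusted p = 0.00176). mt-co1 had 0.25 (SE 0.181, adjusted p = 0.353) and was not called. The controls left in that fit were both of the other reaction volume. Over all alternatives, the smallest adjusted p among the members ran from 0.00176, without control 3, to 0.897, without control 2.

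A term for reaction volume takes up controls 1 and 2, so the pools are then read against control 3 alone. With it, all 13 members had a log2 fold change above 0, with a median of 0.58, where the median over all tested genes was 0.02. Control 3 alone gives no spread, so the spread in this fit came from controls 1 and 2 and from the pools. Among the members, mt-cyb had 1.10, mt-co2 1.04 and mt-co1 0.95, and the lowest was mt-nd3 at 0.016. With control 3 as the only reference, these are effect sizes, and no call on the members is drawn from them. Of the 13 members, 10 thus had the opposite sign from the fit with all controls, among them mt-co2, mt-co3 and mt-cyb. mt-co1 and mt-nd5 were above 0 in all 3 fits. Reaction volume, the identity of control 3 and the pools cannot be told apart fully in this design.

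**Figure D4:**
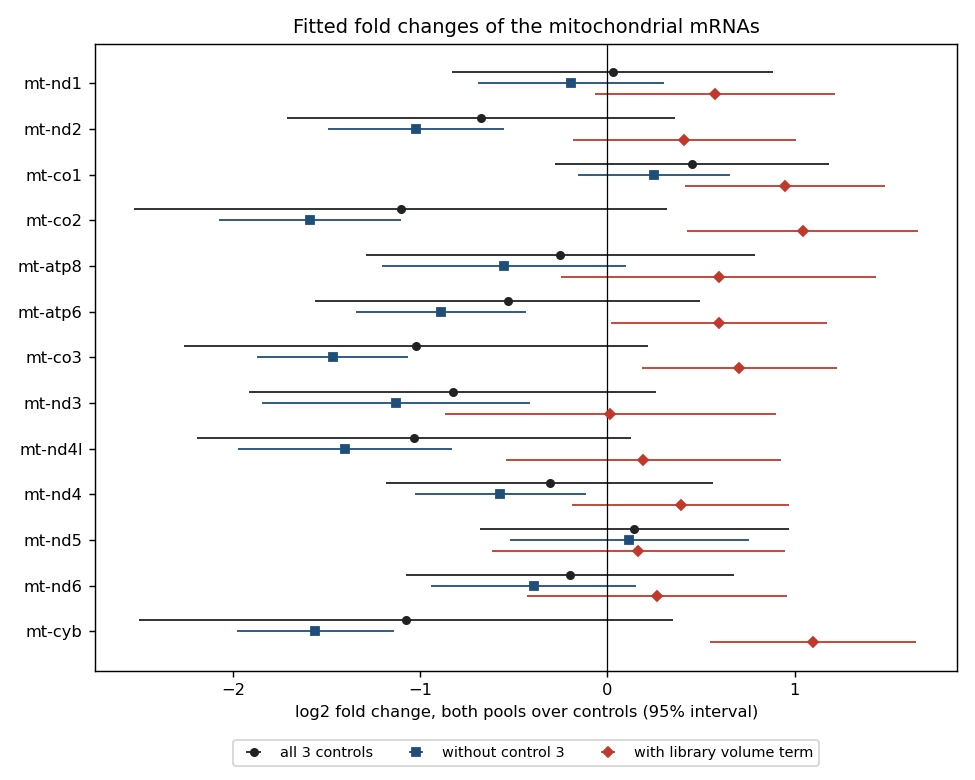
Log2 fold change of both pools over the controls for each mitochondrial mRNA, with 95% intervals, from the fit with all 3 controls, without control 3, and with a term for library reaction volume. Values of mt-co2, mt-co3 and mt-cyb lie below 0 in the first and second fits and above 0 in the third. Those of mt-co1 and mt-nd5 lie above 0 in all.

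Measured against the mean of controls 1 and 2 alone, on log2(CPM + 0.5), the members had a median of -0.70 in the pool of 10, -0.86 in the pool of 25 and -1.11 in control 3. All tested genes had medians of -0.04, -0.06 and -0.06. mt-cyb was at -1.61 and -1.49 in the pools and -2.65 in control 3, and mt-co2 at -1.57, -1.53 and -2.60. mt-nd5 was at 0.41, -0.12 and 0.01. The profile over the 13 genes had its low points at mt-co2, mt-co3 and mt-cyb in control 3, and at the same genes together with mt-nd4l in the pool of 10. In the pool of 25 the lowest was mt-nd3, at -1.64. These 3 profiles share controls 1 and 2 as their baseline.

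**Figure D5:**
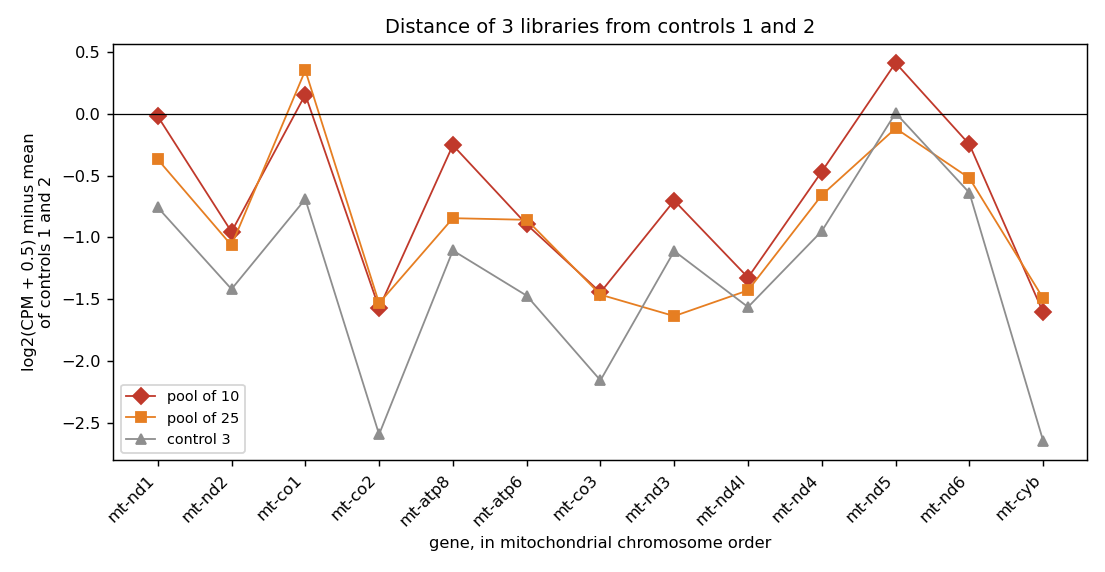
Distance of the pool of 10, the pool of 25 and control 3 from the mean of controls 1 and 2 for each mitochondrial mRNA, on log2(CPM + 0.5), in chromosome order. Control 3 reaches -2.65 at mt-cyb and -2.60 at mt-co2, lower than either pool.

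Taken alone, the pool of 10 gave log2 fold changes against the controls from -1.13 for mt-cyb and -1.12 for mt-co2 to 0.35 for mt-co1 and 0.38 for mt-nd5. The median was -0.43, with 9 members below 0 and 4 above, where 54.9% of tested genes were below 0 and their median was -0.11. The pool of 25 gave values from -1.37 for mt-nd3 and -1.09 for mt-nd4l to -0.15 for mt-nd5 and 0.55 for mt-co1. Its median was -0.58, with 12 members below 0 and 1 above, where 55.0% of tested genes were below 0 and their median was -0.12. edgeR called 0 of 13 members in either pool (background 0.0% in each), and 0 of 13 had an unadjusted p under 0.05, where 3.22% and 3.05% of tested genes did. The smallest adjusted p was 0.951 and 0.913 for the pools of 10 and 25. DESeq2 also called 0 of 13 members in each (background 0.0547% in each), and in the pool of 25 it had 1 member under an unadjusted 0.05, where 5.14% of tested genes were. Each pool was 1 library and was assumed to vary like the controls. Because both comparisons use the same controls, their values are not independent.

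The pool of 25 against the pool of 10 asks whether more guides went with another mitochondrial level. mt-nd3 had 43.0 CPM in the pool of 25 and 82.7 CPM in the pool of 10, which gave -0.94 on the log2 scale (SE 0.834, -2.79 to 0.90 as its 95% interval). mt-atp8 had 41.6 CPM in the pool of 25 and 62.9 CPM in the pool of 10, at -0.60 (SE 0.845, -2.46 to 1.27). mt-co1 was at 0.20 (SE 0.644, -1.23 to 1.62) and mt-cyb at 0.11 (SE 1.03, -2.15 to 2.38). The members' median was -0.11, with 9 below 0, where 49.2% of tested genes were below 0 and their median was 0.00. edgeR called 0 of 13 members (background 0.0%), 0 of 13 had an unadjusted p under 0.05 (background 0.791%), and DESeq2 called 0 of 13. The intervals of these 4 genes all include 0 and are wide. Each pool is 1 library, so the spread came from the controls, whose reaction volumes differ.

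A further 24 entries of the tables carry as symbol the reference name of the zebrafish mitochondrial sequence with a running number. RefSeq lists 2 rRNA and 22 tRNA genes on that chromosome, the same total, but neither the tables nor the annotation used here says which entry is which gene. They lie outside the rule that chose the members, and were described after their values were seen. ENSDARG00000080337 was the most abundant entry of every library by TPM. It took 5.94% and 6.11% of gene counts in the pools of 10 and 25, against 12.9%, 19.5% and 6.39% in controls 1 to 3. ENSDARG00000082753 had 485 and 449 CPM in the pools, against 1503, 2437 and 489 CPM. For both entries control 3 lay just above the pools in CPM and far below controls 1 and 2. The other 22 entries summed to 49 and 31 counts in the pools, against 338, 417 and 9 counts. Neither abundant entry passed with both pools against the controls (ENSDARG00000080337, log2 fold change -1.40, SE 0.455, adjusted p = 0.464; ENSDARG00000082753, -1.66, SE 0.577, adjusted p = 0.464).

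Set against ENSDARG00000080337, the mitochondrial mRNAs together stood higher in both pools than in any control. That entry was chosen after its values were seen. As a share of gene counts it was itself below every control in both pools (5.94% and 6.11%, against 6.39% in control 3, the lowest control). This raises the ratio for any gene. The share of the 13 mRNAs in gene counts lay inside the range of the controls. The counts of the 13 mRNAs together equalled 13.6% and 13.9% of that entry's counts in the pools of 10 and 25, against 9.11%, 6.56% and 7.501% in the controls (7.72% ± 1.29, SD, n = 3). mt-co1 had 41.7 and 48.3 counts for every 1000 of the entry in the pools, against 14.1, 9.01 and 21.9 in the controls. By gene, both pools were above every control for 8 of 13 members, where 35.7% of tested genes were above every control by the same measure. mt-co3, mt-nd3, mt-nd4l, mt-nd5 and mt-cyb overlapped the controls.

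Nuclear genes supply the machinery that copies, transcribes, processes and translates the mitochondrial genome. Of 83 symbols listed for these functions, 75 were found and 73 passed the filter. With both pools against the controls, edgeR, DESeq2 and limma voom each called 0 of 73. By edgeR 3 lower and 1 higher had an unadjusted p under 0.05, where 6.66% of all tested genes were lower and 3.97% higher at that p. Their median log2 fold change was -0.16, against -0.08 over all tested genes. The lower ones were led by clpp, a subunit of the matrix protease ClpXP, with 108 and 98.4 CPM in the pools of 10 and 25, against 258, 210 and 181 CPM in the controls (log2 fold change -1.06, SE 0.370, adjusted p = 0.464). mtif2, a translation initiation factor, had 18.2 and 22.6 CPM in the pools, against 31.1, 67.9 and 49.9 CPM. slirp, which in mammals binds and stabilises mitochondrial mRNAs, had 21.3 and 18.9 CPM, against 46.2, 42.3 and 30.6 CPM (-0.98, SE 0.414, adjusted p = 0.465). The 3 genes were named for their small p, and both pools lay below every control for each, as for 14.9% of tested genes.

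The higher genes of this machinery were led by gfm2, a factor that recycles mitochondrial ribosomes, with 19.99 and 19.7 CPM in the pools, against 7.74, 4.79 and 10.0 CPM (1.41, SE 0.485, adjusted p = 0.464). aars2, the mitochondrial alanyl-tRNA synthetase, had 17.7 and 19.2 CPM, against 10.9, 8.07 and 9.69 CPM. fastk, whose mammalian mitochondrial form is needed for ND6 mRNA, had 82.8 and 82.4 CPM, against 33.6, 27.5 and 70.8 CPM. The 3 genes were named for their small p, and both pools exceeded every control for each, as for 14.6% of tested genes. At unadjusted p = 0.0564 for aars2 and 0.0759 for fastk, these 2 did not pass even without adjustment, and fastk had 0.22 with the volume term, against 0.91 without it. Without control 3, edgeR called 11 lower and 9 higher of 74 tested, where 12.8% of all tested genes were called lower and 11.9% higher. With the volume term it called 0 lower and 1 higher of 73 (background 0.0182% and 0.0426%).

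The nuclear-encoded subunits that assemble with the mitochondrial ones in complexes I, III, IV and V numbered 85, of which 75 passed the filter. With both pools against the controls, edgeR, DESeq2 and limma voom each called 0 of 75, while by edgeR 24 lower and 0 higher had an unadjusted p under 0.05 (background 6.66% and 3.97%). Their median was -1.02, with 70 of 75 below 0 where 53.4% of all tested genes were, beside -0.53 for the mitochondrial members. With the volume term the medians were 0.10 for the nuclear subunits and 0.58 for the mitochondrial members. Without control 3, edgeR called 54 of 75 nuclear subunits lower, with a median of -1.40, where 12.8% of all tested genes were called lower and their median was -0.09. uqcr10, a small subunit of complex III, had 68.1 and 61.6 CPM in the pools of 10 and 25, against 254, 339 and 94.5 CPM (-1.82, SE 0.537, adjusted p = 0.464, and -0.54 with the volume term). uqcrq, of the same complex, had 23.5 and 24.4 CPM, against 110, 138 and 33.4 CPM. ndufs8b, of complex I, had 2.43 CPM in the pool of 10 and no count in the pool of 25, against 41.8, 43.0 and 8.65 CPM. Among the 5 subunits above 0, ndufv1, which binds NADH in complex I, had 363 and 313 CPM, against 193, 236 and 259 CPM (0.56, SE 0.343, adjusted p = 0.519). ndufv3, also of complex I, had 55.0 and 36.1 CPM, against 44.7, 39.5 and 24.1 CPM, and cox8b, of complex IV, had 0.675 and 1.64 CPM, against 0.425, 1.43 and 0.173 CPM.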

How the data were processed

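RNA was sequenced from 5 libraries of whole zebrafish embryos. The authors deposited gene counts and, per library, a second table read as TPM from its column totals. The sources used here do not name the aligner, the counter or the annotation. Per the submitters' processing notes, bcl2fastq 2.20 was used and the genome build was danRer11. Gene order was taken by name from RefSeq annotation of another assembly, so no coordinates are given, and no sequence table was used here. Count entries that name no gene (26.7% to 53.8% of reads) were left out.

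Counts were TMM scaled and tested with edgeR 4.0.16 (R 4.3.3) by quasi-likelihood, after its expression filter with a minimum count of 10, with Benjamini-Hochberg adjustment over 16445 genes at 0.05. Single pools were fitted as 3 groups (2 residual degrees of freedom), both pools as 2 groups (3 residual degrees of freedom). As alternatives, DESeq2 1.42.0 and limma 3.58.1 were run, with other scalings and filters, a volume term, and each control left out. The default edgeR fit, and DESeq2 and limma voom for both pools, were tried on simulated counts with large changes and no volume effect. The volume term, the fits without a control and limma on TPM were not simulated. All mRNA members were named, with values per library; fold changes were printed for each in the comparison of both pools, and otherwise for the 2 highest and 2 lowest; partner genes were named by smallest unadjusted p. Members, lists and rules were chosen with earlier results of these data known. Scalings without all 37 mitochondrial entries, and the description of the 24 entries, were chosen after seeing the data.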

Additional observations from a re-analysis of the deposited data

How the results depend on the processing

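The median of the mitochondrial mRNAs moved by more than the spread between controls with the volume term. It was then 0.58 in the pool of 10, 0.36 in the pool of 25 and 0.58 in both pools. In the pool of 25 it also moved by more with TPM + 1 and TPM + 0.1 (0.16 and 0.16). The median of all tested genes was itself 0.41 and 0.52 there. With TPM + 1 the members' median also rose above 0 in the pool of 10 (0.12) and in both pools (0.14), within that spread. The median of all tested genes was then 0.33 and 0.36. Leaving out single controls gave medians from -0.74 to -0.13 in the pool of 10, from -0.87 to -0.26 in the pool of 25, and from -0.89 to -0.26 in both pools. In both pools 7 members were called without control 3 (background 12.8% of tested genes lower and 11.9% higher). Without control 1 or control 2, 0 members and 0 of all tested genes were called there. In the other comparisons 0 members were called, and at most 4 of all tested genes in a direction. With the volume term, signs were reversed for 9 members in the pool of 10, among them mt-cyb (1.04) and mt-co2 (1.02), for 10 in the pool of 25, among them mt-nd4l (0.14), and for 10 in both pools, namely mt-nd2 (0.41), mt-co2 (1.04), mt-atp8 (0.59), mt-atp6 (0.60), mt-co3 (0.70), mt-nd3 (0.016), mt-nd4l (0.19), mt-nd4 (0.39), mt-nd6 (0.26) and mt-cyb (1.10); by construction these are values against control 3. Library size alone, which moved the median of all tested genes to 0.14 in both pools, reversed 2 members in the pool of 10, 2 in the pool of 25, among them mt-nd5 (0.11), and mt-atp8 (0.019) and mt-nd6 (0.052) in both pools. TPM + 1 reversed 4 members in the pool of 10, 7 in the pool of 25, among them mt-nd5 (0.54), and in both pools mt-nd2 (0.0025), mt-atp8 (0.33), mt-atp6 (0.14), mt-nd4 (0.29) and mt-nd6 (0.35), and TPM + 0.1 gave 0.54, 0.0027, 0.33, 0.14, 0.29 and 0.36 for the same genes. TPM rescaled without the 37 mitochondrial entries reversed 3 and 6 members in the pools of 10 and 25, with 0.47 for mt-nd5 in the pool of 25, and gave 0.25, 0.061, 0.21 and 0.28 for mt-atp8, mt-atp6, mt-nd4 and mt-nd6 in both pools. The cause of these reversals was not tested. Single controls left out gave -0.31 to 0.040 for mt-nd5 in the pool of 25, and in both pools -0.20 to 0.16 for mt-nd1, -0.55 to 0.068 for mt-atp8 and -0.018 to 0.33 for mt-nd5. In TPM the share of mt-atp6 among the members had a log2 ratio of 0.089 for both pools over the controls, against -0.045 in counts. With the 24 further entries added, mitochondrial RNA made up 6.79% and 7.01% of gene counts in the pools of 10 and 25, against 14.2%, 21.0% and 6.92% in the controls. No paired analysis was possible because each pool is 1 library and replicate numbers are given for the controls alone. With 1 library per pool, precision is limited by the spread between controls rather than by counts.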

Other observations

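The ratio of count to TPM serves as a stand-in for the transcript length used by the authors. Relative to mt-co1 it was 0.469 and 0.436 for mt-co2 in the pools of 10 and 25, against 0.416, 0.415 and 0.456 in controls 1 to 3, so the deposited tables are not a single rescaling of each other. Across 12142 tested genes with at least 10 counts in every library, Spearman's rho between this ratio and the log2 distance from controls 1 and 2 was 0.61 in the pool of 10, 0.63 in the pool of 25 and 0.60 in control 3. Across the 13 mitochondrial mRNAs it was 0.26, 0.45 and 0.27. The points share libraries and baseline, genes are not independent replicates, and the values are descriptions.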
